A study of Mus musculus with 6 samples.

Results

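Autotaxin is a secreted enzyme, encoded by *Enpp2*, that cleaves choline from lysophosphatidylcholine and leaves lysophosphatidic acid (LPA), a signaling lipid. LPA acts on neighboring cells through G protein-coupled receptors and is removed at the cell surface by lipid phosphate phosphatases. It is best known in the ovary as a growth and motility factor found in the ascites of ovarian cancer. The 10 genes followed here were chosen by symbol from the 20405 genes of the array table. They are *Enpp2* and its relatives *Enpp1* and *Enpp3*, the receptors *Lpar1*, *Lpar2*, *Lpar3*, *Lpar4* and *Lpar6*, and the phosphatases *Ppap2a* and *Ppap2b* (*Plpp1* and *Plpp3* in RefSeq). *Enpp2* was taken up because of its fall in these same arrays, so its values are given as a description without a test. The other genes followed here, and the gene lists used below, were also chosen with earlier results of these data known, which limits what their p-values show. All 10 genes had 1 probe set each.

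RNA was measured in M0505 cells, a mouse ovarian surface epithelial line at early passage (3 arrays), and in STOSE cells, the line that arose from M0505 by spontaneous transformation during long culture (3 arrays). Both lines derive from FVB/N mice, carry no engineered allele, received no treatment, and were grown in the same medium with fetal calf serum, EGF and ITSS. Animal age is not given in the sources used here. Each group is a single line, both lines are aneuploid according to the study's karyotypes, and the labels call the replicates biological without saying how their cultures were separated, so p-values measure the spread between these arrays, which may be technical. The arrays (Mouse Gene 1.0 ST from Affymetrix) read each gene with a set of probes, and the deposited values are on a log2 scale after robust multi-array average (RMA) normalization, so a difference of 1 is 2-fold. Values of different genes come from different probes and do not measure their relative amounts. Sums over marker lists, and the gene with the highest signal in a list, describe array signal and not cell content. Olfactory receptor genes served as the background measure, and the 95th percentile of their 1134 probe sets was 4.72.

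Markers of the labelled tissue were examined first. Of 12 genes of the ovarian surface epithelium, 11 had a mean above the background measure in M0505 cells and 11 in STOSE cells. The mesothelial gene *Upk3b* was at 12.25 ± 0.01 (log2, SD, n = 3) in M0505 and at 11.91 ± 0.06 in STOSE cells, and *Wt1*, a transcription factor of this epithelium, had 11.39 ± 0.03 and 10.76 ± 0.02. The simple keratins *Krt8* and *Krt19* were lower in STOSE cells by 23.5-fold and 47.2-fold, and *Krt18* by 1.79-fold, short of a 2-fold difference. *Gata4*, *Bnc1* and *Krt7* were lower by 2.60-fold, 2.08-fold and 2.04-fold, and *Cdh1*, the E-cadherin gene, was near background in both lines (4.79 and 4.82). *Cdh2*, the N-cadherin gene, was at 10.48 ± 0.09 in M0505 and 10.67 ± 0.08 in STOSE cells, a log2 difference of 0.18. *Msln* was lower by 1.52-fold, short of 2-fold, and *Lhx9* was near background in both lines (4.63 and 4.71). With each array centred on its median the log2 differences of *Bnc1* and *Krt7* were −0.85 and −0.83, short of 2-fold, and that of *Krt7* was also short of it without M0505 replicate 2 (−0.99), M0505 replicate 3 (−0.997) or STOSE replicate 1 (−0.89). The summed linear level of the list was 25274, 26343 and 26018 on the M0505 arrays and 13127, 13762 and 13921 on the STOSE arrays.

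*Enpp2* had log2 values of 11.07, 11.21 and 11.22 on the M0505 arrays and of 3.99, 4.04 and 3.87 on the STOSE arrays. Every M0505 array was far above every STOSE array, and the 3 STOSE values were all under the background measure. STOSE cells therefore give only a bound, and M0505 cells were at least 87.2-fold higher when the STOSE values were set to the background measure. The measured values differed by −7.20 on the log2 scale (STOSE minus M0505), a number that rests on STOSE signal under the background measure and does not estimate a fold. The 5 genes whose 6 centred log2 values lay closest to those of *Enpp2* were *Aldh1a2* (root mean square distance 0.142 on the log2 scale), *4930502E18Rik* (0.263), *Gpr64* (0.282), *Gpr126* (0.338) and *Igfbp5* (0.342). The STOSE means of *Aldh1a2* (3.95), *4930502E18Rik* (4.03), *Gpr64* (3.91) and *Gpr126* (4.09) were also under the background measure. Their distances thus rest partly on such signal, and their order is not read further. With 2 groups of 3 arrays, this likeness reflects little beyond the size of the fall.

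*Enpp1* encodes a membrane enzyme that splits extracellular ATP into AMP and pyrophosphate and also degrades cGAMP, the messenger of the DNA sensor cGAS. Its log2 values were 10.42, 10.25 and 10.21 on the M0505 arrays and 5.15, 5.44 and 5.00 on the STOSE arrays. The groups did not overlap, and all 6 values were above the background measure, although the STOSE values lay close to it. The mean fell from 10.30 ± 0.11 (SD, n = 3) to 5.20 ± 0.22, a 34.3-fold fall between the measured means. The log2 difference was −5.10 (standard error 0.11, adjusted p = 1.15e-08 from limma). With STOSE signal so near background, the fold is approximate. By measured fold *Enpp1* ranked 38 among the 1548 genes called lower in STOSE cells. Genes ranked ahead include some, such as *Kdr* (33), with every STOSE array under the background measure, so the rank is approximate. Leaving out single arrays gave falls of *Enpp1* of 32.1-fold to 37.3-fold.

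*Enpp3*, which encodes an ectoenzyme that also hydrolyzes extracellular nucleotides, differed the other way. Its log2 values were 6.97, 6.65 and 6.72 on the M0505 arrays and 7.72, 7.59 and 7.28 on the STOSE arrays. The STOSE values were all higher, with no overlap, although the gap was small beside that of *Enpp1*. The log2 difference was 0.75 (95% interval 0.46 to 1.04, limma adjusted p = 0.000988), which is 1.68-fold and short of the 2-fold required for a call. *Enpp3* is the next measured gene to *Enpp1* on chromosome 10 of the RefSeq annotation, on the same strand.

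The promoters of these neighbors are shown because the genes differed in opposite directions between the lines. The stretches are the 250 bases before the annotated start, 5′ to 3′, from RefSeq GRCm38.p6, both on the minus strand, *Enpp1* at chr10:24712160-24712409 and *Enpp3* at chr10:24836196-24836445. Capitals mark matches on either strand to the TATA box (letters TATAAA), the GC box (letters GGGCGG), the CCAAT box (letters CCAAT) or the AP-1 motif (letters TGANTCA).
Enpp1: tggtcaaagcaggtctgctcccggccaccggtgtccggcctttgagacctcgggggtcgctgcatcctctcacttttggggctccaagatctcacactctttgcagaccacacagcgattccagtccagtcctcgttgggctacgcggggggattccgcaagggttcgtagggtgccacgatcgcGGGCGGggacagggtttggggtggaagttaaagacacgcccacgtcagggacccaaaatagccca
Enpp3: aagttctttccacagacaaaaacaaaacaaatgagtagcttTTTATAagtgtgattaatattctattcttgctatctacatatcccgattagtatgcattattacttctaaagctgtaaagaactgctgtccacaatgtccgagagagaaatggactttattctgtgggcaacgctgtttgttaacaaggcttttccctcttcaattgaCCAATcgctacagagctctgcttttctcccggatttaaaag
*Enpp1* held 17 CG pairs and a GC box that begins 65 bases before the start. *Enpp3* held 5 CG pairs, a CCAAT box that begins 41 bases before the start, and the TATA box letters on the opposite strand, in a match that begins 209 bases before it. Over 32851 promoters of the same length the median was 6 CG pairs, 12.4% held the TATA box letters, 32.7% the GC box, 33.8% the CCAAT box and 6.75% the AP-1 motif. A match is a description of letters and not a measured site. A promoter was found for 8 of the 10 genes, and *Enpp2* and *Ppap2a* had no entry.

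**Figure D1:**
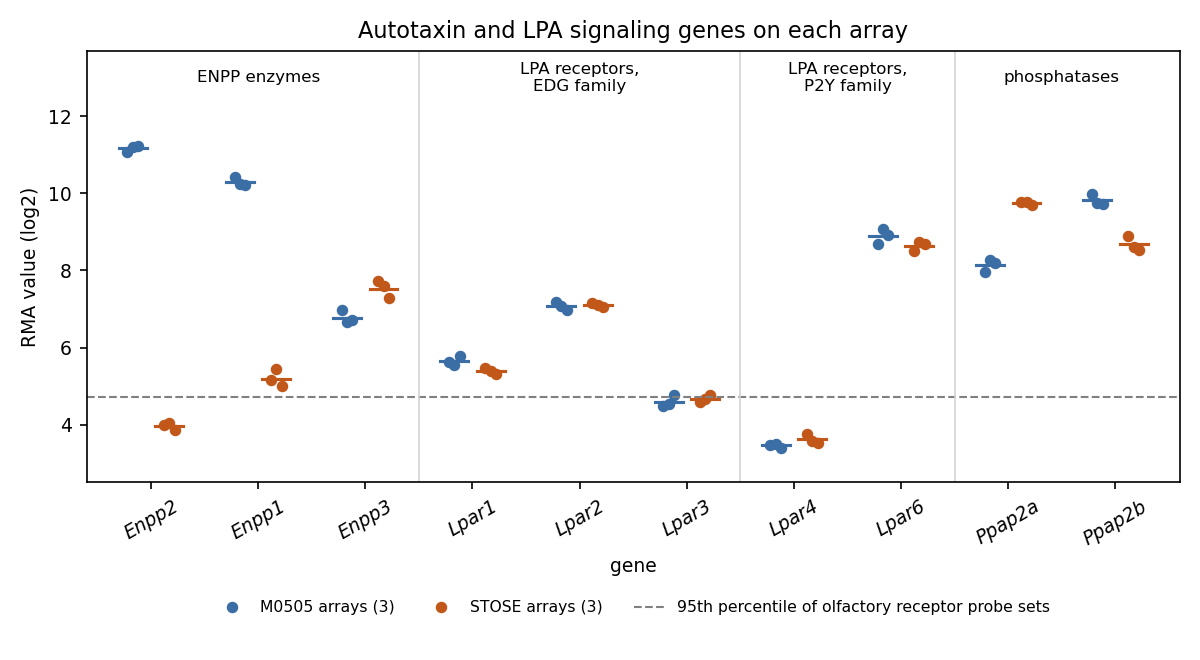
RMA values (log2, vertical axis) of the 10 genes on each of the 3 M0505 arrays (blue) and 3 STOSE arrays (orange), with bars for the means and a dashed line at the 95th percentile of olfactory receptor probe sets (4.72). *Enpp2* lies under the dashed line on all 3 STOSE arrays, and *Enpp1* drops by 5.10 on the log2 scale, to STOSE values close to that line. *Ppap2a* and *Ppap2b* part in opposite directions, and the means of each receptor differ by less than 2-fold.

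Of the 9 members other than *Enpp2*, 2 were called lower and 1 higher in STOSE cells, a call being an adjusted p under 0.05 with at least a 2-fold difference. Over all 20405 genes, 7.59% were called lower and 4.90% higher, 12.5% in all. At the adjusted p alone 3 of the 9 were lower and 2 higher, against 24.8% and 31.6% of all genes, 56.5% in all. The values of the lines did not overlap in 6 of the 9, against 64.6% of all genes, of which 37.6% were higher and 27.0% lower in STOSE cells. The 6 include *Lpar4*, which lay under the background measure on every array. The scaling of the arrays bears on these shares. The median log2 difference of all genes was 0.08 with the deposited values, and centring each array on its median raised all differences by 0.20, which changed the calls from 1000 higher and 1548 lower to 1466 and 1177 (39.2% and 55.5% higher).

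The receptors carry the LPA signal into the cell. *Lpar1*, *Lpar2* and *Lpar3* belong to the EDG family, and *Lpar4* and *Lpar6* to the P2Y-like family. None of the 5 receptors was called changed with the deposited values or under the 2 other scalings. For *Lpar1*, *Lpar2* and *Lpar6*, which were above the background measure on all 6 arrays, the 95% intervals with the deposited values lay between −0.49 and 0.18 on the log2 scale and left out a 2-fold change.

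*Lpar1*, which couples to Gi, Gq and G12/13 proteins, had log2 values of 5.61, 5.54 and 5.78 on the M0505 arrays and 5.46, 5.39 and 5.30 on the STOSE arrays. The STOSE values were lower without overlap, by a log2 difference of −0.26 (95% interval −0.44 to −0.08, limma adjusted p = 0.0224). With each array centred on its median the difference was −0.06 (adjusted p = 0.504), and leaving out single arrays gave −0.31 to −0.19. The adjusted p was above 0.05 without M0505 replicate 3 (0.0747) and without STOSE replicate 2 (0.0561) or 3 (0.0763). It was also above 0.05 after a further quantile normalization (0.0586) and with the methods' t-test after adjustment (0.0704).

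*Lpar2*, a receptor often raised in ovarian cancer, had log2 values of 7.19, 7.08 and 6.97 on the M0505 arrays and 7.14, 7.10 and 7.04 on the STOSE arrays. The lines overlapped, with a log2 difference of 0.02 (95% interval −0.15 to 0.18, adjusted p = 0.841). *Lpar6*, a receptor known for its part in hair growth, had 8.70, 9.09 and 8.91 on the M0505 arrays and 8.52, 8.73 and 8.68 on the STOSE arrays. These also overlapped, and the log2 difference was −0.25 (95% interval −0.49 to −0.01, adjusted p = 0.0713). For *Lpar6* the limma adjusted p was under 0.05 with the replicate number as a block (0.0133) and without M0505 replicate 1 (0.01445).

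*Lpar3* and *Lpar4* were near or under background. *Lpar3* had log2 values of 4.49, 4.54 and 4.76 on the M0505 arrays and 4.58, 4.66 and 4.77 on the STOSE arrays, with 1 array of each line above the background measure. Its log2 difference was 0.07 (95% interval −0.13 to 0.27, adjusted p = 0.512). *Lpar4* had 3.48, 3.50 and 3.39 on the M0505 arrays and 3.76, 3.57 and 3.53 on the STOSE arrays, all 6 under the background measure. The lines did not overlap, with a log2 difference of 0.16 (95% interval −0.01 to 0.34, limma adjusted p = 0.0975). Neither gene gave a level that could be told from the olfactory receptor probe sets in either line.

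At the adjusted p alone, the receptors past 0.05 changed with the scaling, from 1 lower (*Lpar1*) with the deposited values to 3 higher with each array centred on its median. Of these, *Lpar2* had a log2 difference of 0.22 (adjusted p = 0.0157), and *Lpar3* and *Lpar4* were the genes near or under background. *Lpar5*, a further LPA receptor gene, had a mean of 5.87 ± 0.15 (SD, n = 3) in M0505 cells and 5.90 ± 0.12 in STOSE cells, a log2 difference of 0.03 (adjusted p = 0.827).

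The lipid phosphate phosphatases dephosphorylate LPA outside the cell and so end its signal. *Ppap2a* had log2 values of 7.97, 8.27 and 8.19 on the M0505 arrays and 9.76, 9.77 and 9.71 on the STOSE arrays. STOSE values were higher without overlap, by 3.04-fold (log2 difference 1.60, standard error 0.08, limma adjusted p = 1.07e-06). *Ppap2b* moved the other way. Its log2 values were 9.98, 9.75 and 9.72 on the M0505 arrays and 8.89, 8.62 and 8.52 on the STOSE arrays, again without overlap. It was lower in STOSE cells by 2.20-fold (log2 difference −1.14, standard error 0.11, adjusted p = 3.92e-05), and its call depended on the scaling, since the log2 difference was −0.94 with each array centred on its median. The third family member on the array, *Ppap2c* (*Plpp2* in RefSeq), had 9.87 ± 0.04 in M0505 cells and 10.81 ± 0.09 in STOSE cells, a log2 difference of 0.94 (adjusted p = 5.73e-06) that was just short of 2-fold and became 1.14 under the same centring.

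**Figure D2:**
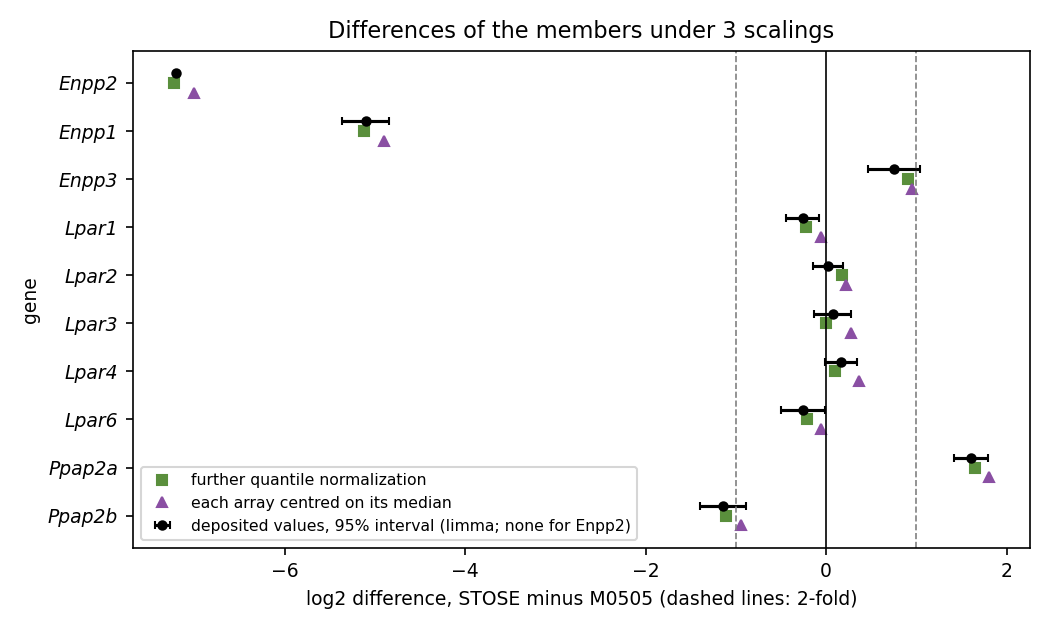
Log2 difference of STOSE minus M0505 (horizontal axis) for each of the 10 genes, with the 95% interval from limma for the deposited values (black; none for *Enpp2*) and the value under 2 other scalings, and with dashed lines at 2-fold. The receptors stay within 2-fold under all 3 scalings, and *Ppap2b* crosses the 2-fold line, from −1.14 to −0.94, when each array is centred on its median.

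Other genes of LPA metabolism were counted from lists. Of 17 measured genes of other routes to LPA, 3 were called lower and 0 higher in STOSE cells (limma), with 5 lower and 4 higher at the adjusted p alone. Over all genes 7.59% were called lower and 4.90% higher, and 24.8% were lower and 31.6% higher at the adjusted p alone, and the counts of the other lists have the same background. *Gdpd3*, whose product is an intracellular lysophospholipase D that also forms LPA, had log2 values of 7.57, 8.13 and 7.99 in M0505 cells and 4.39, 3.85 and 4.17 in STOSE cells, the latter all under the background measure. M0505 cells were thus at least 9.02-fold higher. *Lipg*, the gene of endothelial lipase, a phospholipase, had 9.99, 10.80 and 10.81 in M0505 cells and 6.65, 7.02 and 7.13 in STOSE cells, a 12.1-fold fall (log2 difference −3.60, standard error 0.22, adjusted p = 2.81e-06). *Gpam*, which makes LPA at the outer mitochondrial membrane as a step of glycerolipid synthesis, fell by 2.23-fold (adjusted p = 4.06e-06), or by 0.95 on the log2 scale with each array centred on its median. Of the other phospholipase A1 genes, *Pla1a* and *Liph* were not called, *Pla1a* being at 4.62 and 4.83 and *Liph* at 3.36 and 3.40 in M0505 and STOSE cells. The median log2 difference of the list was 0.03, against 0.08 over all genes.

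Of 16 measured genes of LPA breakdown and acylation, 2 were called higher and 0 lower, against 4.90% and 7.59% of all genes. At the adjusted p alone 5 were higher and 6 lower, against 31.6% and 24.8% of all genes, and the median log2 difference was 0.13. *Agpat4*, an acyltransferase that turns LPA into phosphatidic acid, was at 5.76 ± 0.05 (log2, SD, n = 3) in M0505 cells and at 7.92 ± 0.09 in STOSE cells, without overlap. It rose by 4.46-fold (log2 difference 2.16, standard error 0.07, adjusted p = 6.66e-08). *Acp6*, the gene of a lysophosphatidic acid phosphatase, rose by 2.10-fold (adjusted p = 1.11e-05), and its log2 difference was 0.99 without M0505 replicate 1.

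In the ENPP family, *Enpp5* was the only gene called among the 4 further members on the array. It fell from 9.91 ± 0.09 (SD, n = 3) to 7.86 ± 0.02, which is 4.13-fold (log2 difference −2.05, standard error 0.06, adjusted p = 6.94e-08). *Enpp4* was at 9.89 ± 0.03 and 9.74 ± 0.07, a log2 difference of −0.16 (adjusted p = 0.0543). *Enpp6*, which encodes a choline-specific glycerophosphodiesterase, was close to background, at 5.00 ± 0.28 and 4.36 ± 0.09. Its log2 difference was −0.64 (limma adjusted p = 0.00307), short of 2-fold, with 2 M0505 arrays and 0 STOSE arrays above the background measure. *Enpp7* lay at 4.71 and 4.72.

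The substrates and products of ENPP1 involve a further set of genes, of which 2 of 13 were called higher and 2 lower. *Adora2b*, an adenosine receptor gene, fell from 8.24 ± 0.32 (SD, n = 3) to 4.64 ± 0.19, 12.1-fold between the measured means, of which the STOSE mean was under the background measure with 1 of 3 arrays above it (adjusted p = 4.77e-07). *Adora1*, another adenosine receptor gene, fell by 3.14-fold (adjusted p = 2.08e-05). *Ank*, which encodes a protein that exports pyrophosphate or its precursor, rose by 2.05-fold (log2 difference 1.03, adjusted p = 2.18e-06). *E330016A19Rik*, named *Cgas* in RefSeq and encoding the sensor that makes cGAMP, was under the background measure in M0505 cells (4.37 ± 0.03) and at 6.32 ± 0.08 in STOSE cells, so STOSE cells were at least 3.03-fold higher. *Nt5e*, whose product turns AMP into adenosine, had a log2 difference of −0.52 (adjusted p = 0.0179), and *Tmem173*, the gene of the cGAMP receptor STING, one of −0.09 (adjusted p = 0.236).

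Sphingosine 1-phosphate is a sister lipid of LPA with receptors of the same EDG family. Of 11 genes for its enzymes, transporter and receptors, 2 were called lower and 0 higher, and the median log2 difference was −0.11. *Sgpp2*, a sphingosine 1-phosphate phosphatase gene, fell from 8.16 ± 0.13 (SD, n = 3) to 5.60 ± 0.16, which is 5.87-fold (adjusted p = 2.25e-07). *Sgpl1*, the gene of the lyase that degrades this lipid, fell by 2.17-fold (log2 difference −1.12, adjusted p = 8.86e-06), or by 0.92 on the log2 scale with each array centred on its median. None of the 5 receptor genes of this lipid was called, *S1pr2* being at 8.09 ± 0.02 and 7.98 ± 0.05.

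Of 20 genes known to be induced by LPA or by serum, 9 were called higher and 3 lower in STOSE cells, and the median log2 difference was 0.71, against 0.08 over all genes. Both lines were grown with serum, many of these genes answer to other signals, and several were known to differ in these arrays when the list was made, so the count is no evidence on LPA. *Cyr61*, a matricellular gene, had log2 values of 9.20, 9.34 and 9.30 in M0505 cells and 11.09, 11.34 and 11.31 in STOSE cells, a 3.91-fold rise (adjusted p = 3.28e-07). *Fosl1*, which encodes an AP-1 factor, had 6.66, 6.02 and 5.77 in M0505 cells and 10.17, 9.98 and 9.64 in STOSE cells, a 13.8-fold rise (adjusted p = 2.15e-06). *Acta2*, the gene of smooth muscle actin, rose by 5.04-fold, *Tagln* by 2.88-fold, *Egr1* by 2.25-fold and *Srf*, the serum response factor gene, by 2.08-fold. *Ereg* and *Ankrd1* were under the background measure in M0505 cells and at least 21.7-fold and 24.5-fold higher in STOSE cells.

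The direction was not shared by all genes of that list. *Plau*, the urokinase gene, was under the background measure on all 3 STOSE arrays, and M0505 cells were at least 3.55-fold higher. *Hbegf*, an EGF receptor ligand gene, fell by 2.66-fold (log2 difference −1.41, adjusted p = 3.12e-06), and *Fos* fell by 2.22-fold (−1.15, adjusted p = 0.00059). The *Fos* difference was −0.93 without STOSE replicate 1 and −0.95 with each array centred on its median. *Ptgs2*, the cyclooxygenase-2 gene, rose by 2.10-fold, with log2 differences of 0.98 without M0505 replicate 2 and 0.94 without M0505 replicate 3. *Ctgf*, next to *Enpp1* on chromosome 10, had a log2 difference of 0.46 (adjusted p = 0.01).

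**Figure D3:**
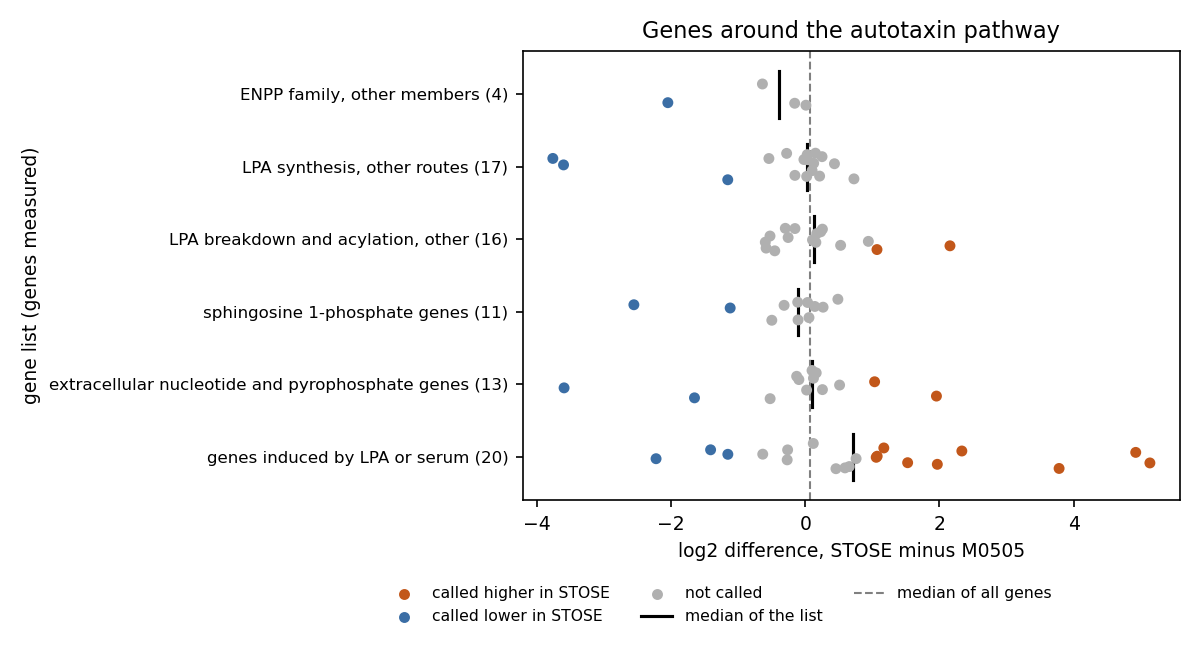
Log2 difference of STOSE minus M0505 (horizontal axis) for each gene of 6 lists (vertical axis, number measured in brackets), colored by call, with a black bar at the list median and a dashed line at the median of all genes (0.08). The genes induced by LPA or serum have 9 genes called higher and 3 called lower around a median of 0.71, while the routes to LPA other than autotaxin have 3 called lower and a median of 0.03.

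*Enpp2* lies on chromosome 15 in RefSeq GRCm38.p6, and its neighbors were taken in the order of that annotation. The 751 genes placed on that chromosome had a median log2 difference of 0.17. Of the 20 measured genes around *Enpp2*, 10 on each side, 4 were called lower and 3 higher, against 7.59% and 4.90% of all genes, and their median log2 difference was 0.12. Both means were under the background measure for 5 of the 20. The gene before *Enpp2*, *Nov* (*Ccn3* in RefSeq), was near background, at 4.63 and 4.85 in M0505 and STOSE cells. The gene after *Enpp2*, *Taf2*, encoding a general transcription factor subunit, was at 10.01 and 9.92 (log2 difference −0.09, adjusted p = 0.216). The 4 lower genes were *Samd12* (log2 difference −2.16), *Depdc6* (*Deptor* in RefSeq, encoding an mTOR inhibitor, −2.74), *Sntb1* (−1.43) and *Zhx2* (−1.44). The 3 higher genes were *Dscc1* (1.29), *Mtbp* (7.83 in M0505 and 9.34 in STOSE cells) and *Has2*, a hyaluronan synthase gene that was under the background measure in M0505 cells and at least 16.2-fold higher in STOSE cells.

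Around *Enpp1*, 3 of 20 measured genes were called lower and 1 higher, against 7.59% and 4.90% of all genes. Their median log2 difference was 0.03, and both means were under the background measure for 10 of the 20. The gene before it was *Ctgf* and the gene after it *Enpp3*, neither of them called. The lower genes were *Stx7* (log2 difference −1.55), *Akap7* (−1.58) and *L3mbtl3* (−2.36). Around *Ppap2a*, on chromosome 13, 2 of 20 neighbors were called higher and 2 lower. Around *Ppap2b*, on chromosome 4, 3 of 20 were called lower and 0 higher. The same shares of all genes apply to both counts. Both means were under the background measure for 5 of the 20 around *Ppap2a* and for 6 of the 20 around *Ppap2b*.

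**Figure D4:**
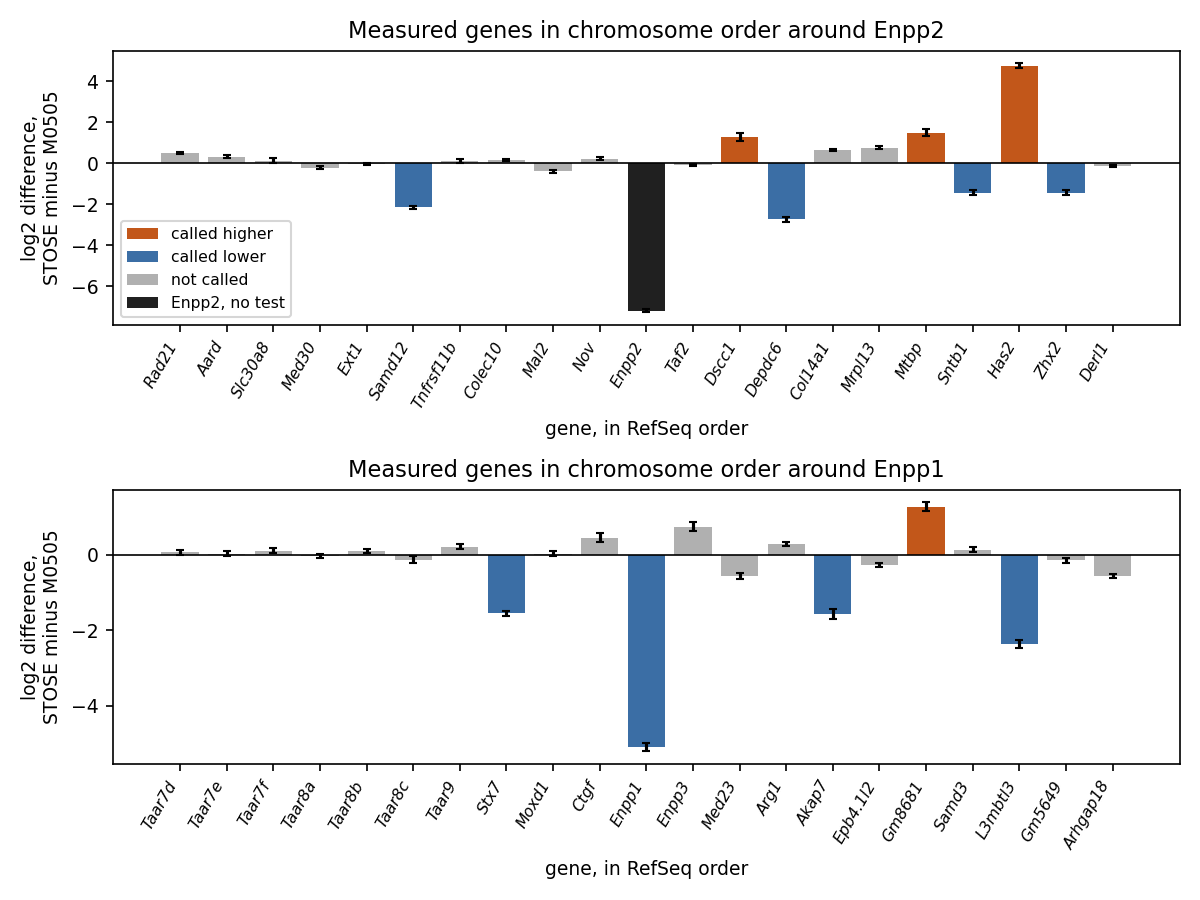
Log2 difference of STOSE minus M0505 (bars, with the standard error from limma) for the 10 measured genes on each side of *Enpp2* and of *Enpp1*, in RefSeq order along the horizontal axis and colored by call, with *Enpp2* in black. *Enpp2* (a measured difference of −7.20, with STOSE signal under background) stands between *Nov* (0.23, near background in both lines) and *Taf2* (−0.09). *Enpp1* (−5.10, with STOSE signal near background) stands between *Ctgf* (0.46) and *Enpp3* (0.75).

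Bulk RNA cannot tell fewer cells of a type from less RNA per cell. In STOSE cells 1 marker each of the leukocyte, endothelial and granulosa lists was called lower, as was *Enpp1*. *Enpp2*, given without a test, also had lower values there. Of 5 leukocyte markers, 2 had a mean above the background measure in M0505 and 2 in STOSE cells. *Cd68* was at 9.49, 9.93 and 9.93 in M0505 and 7.28, 6.91 and 6.69 in STOSE cells, while *Ptprc*, which defines leukocytes, was under background on all 6 arrays (3.79 ± 0.16 and 3.81 ± 0.05). *Cd3e*, above background on all 6 arrays, differed the other way, at 5.09 ± 0.07 and 5.31 ± 0.14 (adjusted p = 0.048). The summed linear level of the list was 801, 1060 and 1057 on the M0505 arrays and 240, 209 and 199 on the STOSE arrays. *Cd68* had the highest signal of the list on all 6 arrays, so the sum follows that gene. The median log2 difference of the list was 0.03.

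Of 4 endothelial markers, 3 had a mean just or well above background in M0505 cells and 2 in STOSE cells. *Kdr* was at 9.58 ± 0.08 (SD, n = 3) in M0505 cells against 4.41 ± 0.29 in STOSE cells, whereas *Cdh5* and *Pecam1* were near background in both lines (4.81 and 4.69 in M0505, 5.01 and 4.33 in STOSE). The summed linear level was 819, 897 and 821 on the M0505 arrays and 102, 102 and 101 on the STOSE arrays. On the M0505 arrays *Kdr* had the highest signal of the list, so this sum follows *Kdr*. Of 5 granulosa markers, 2 were above background in M0505 and 3 in STOSE cells. Here *Inha* fell from 9.61 ± 0.10 to 5.68 ± 0.23, while *Fshr* was under background on all 6 arrays and *Amh* was at 4.68 ± 0.08 and 4.95 ± 0.18 (adjusted p = 0.0416). *Foxl2*, above background on all 6 arrays, was lower in STOSE cells (6.76 ± 0.11 and 6.39 ± 0.05, log2 difference −0.37, adjusted p = 0.00243). The granulosa list summed to 886, 1005 and 965 on the M0505 arrays and 217, 188 and 202 on the STOSE arrays. On the M0505 arrays *Inha* had its highest signal, so this sum follows *Inha*. Of 4 adipocyte markers, a cell type with much autotaxin, only *Plin1* was above background (5.01 and 5.30), and *Adipoq* was under it on all 6 arrays. The adipocyte list summed to 68.5, 70.0 and 68.1 on the M0505 arrays and to 76.4, 76.5 and 81.3 on the STOSE arrays. The part of other cells in the falls of *Enpp2* and *Enpp1* was not tested.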

How the data were processed

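Expression was measured in 3 M0505 and 3 STOSE RNA samples on Affymetrix Mouse Gene 1.0 ST arrays. The authors normalized the arrays by RMA in Affymetrix Expression Console (submitters' processing notes) and deposited log2 values for all arrays in 1 table, whose columns were matched to samples by name. The means, ratios and linear fold changes of the authors in the same table were not used. Software versions, the annotation release and the genome build are not given in the sources used here. The probe set with the highest mean represented a gene, which left 20405 genes from 23530 probe sets with a symbol.

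STOSE and M0505 arrays were compared in limma 3.58.1 (lmFit, then eBayes; R 4.3.3), without covariates, with Benjamini-Hochberg adjustment over all genes. The fit was tested on simulated data. Adjusted p values in the text come from this fit on the deposited values unless another scaling, test or a left-out array is named, since with 3 arrays a group the smallest p of an exact two-sided permutation test is 0.1. A fold against a group with all arrays under background was computed from each array's higher value of its own signal and the olfactory receptor 95th percentile, and is given as a bound.

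The members and lists were chosen with earlier results of these data known. Named singly were all members, list genes that were called with up to 4 others of each list, the neighbors of *Enpp2*, and the 5 genes most like it. Beyond that rule, the neighbors of *Enpp1* that are named, the markers, and some uncalled list genes were chosen after their values were seen. Of the genes, 97.4% were placed in RefSeq GRCm38.p6 by symbol or a unique synonym. Part of the lists is not reported here. No gene was found under the symbols *Gpat2*, *Lppr2* and *Lppr3*. An array has no read depth, and the number of arrays limits the precision. Alternatives were other scalings, filters, probe set rules, tests, thresholds, a replicate block and leaving out each array.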

Additional observations from a re-analysis of the deposited data

How the results depend on the processing

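Without a fold threshold 6454 genes were higher and 5066 lower in STOSE cells, with a 4-fold threshold 186 and 509, and the methods' t-test at an unadjusted p without a fold threshold gave 6495 and 5100. Leaving out each array in turn gave 955 to 1065 higher and 1508 to 1591 lower genes. Without a fold threshold *Enpp3* and *Lpar1* would also be called, and with a 4-fold threshold *Ppap2a* and *Ppap2b* would not. With the 2-fold threshold kept, the direction or the call changed for *Ppap2b*, at −0.94 with each array centred on its median, which adds 0.20 to every difference, *Lpar3*, near background, at −0.0049 after a further quantile normalization, and *Lpar2*, whose leave-one-out range of −0.036 to 0.074 takes in −0.036 without M0505 replicate 3 and −0.0058 without STOSE replicate 1. *Lpar3* and *Lpar4* lie in the dimmest 50% of genes with *Lpar1* and so gave no value when those were left out. With the replicate number as a block, 1001 genes were higher and 1548 lower and no call of a member changed. The deviations of same-numbered arrays correlated at 0.256, 0.0421 and 0.249, and those of differently numbered arrays at −0.293 to 0.119. The labels name no shared day or batch, and the main fit did not pair the arrays by number. With 1 probe set per member, the rule on probe sets changed none of their values.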
